A study of Oryza sativa with 18 samples.

Results

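Open chromatin of 5 cell types that carry the same name in leaf and in seedling was compared in rice (Oryza sativa, genotype Nipponbare). The comparison rests on 10 of the 128 columns of the authors' accessibility table, the leaf and the seedling column of Bundle_sheath, Companion_cell, Epidermis, Mesophyll and Vascular_cell. These columns derive from 4 of the 18 libraries of the atlas, 2 of leaf and 2 of seedling, all from fresh tissue without a named treatment. The labels state neither the age of the plants nor which leaf was sampled, and seedling shares its tissue label with early seedling. ATAC-seq of single nuclei was used, where accessible DNA is cut by a transposase and droplet barcodes keep the nuclei apart. The authors pooled the nuclei of a cell type over the libraries of an organ, so each column is a single value per region without replicate error. For that reason no difference below has a test or an SD over samples. The 5 labels of an organ share its libraries and are not replicates of the organ.

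Open chromatin marks promoters, enhancers and other stretches of DNA that regulatory proteins can reach. Mesophyll cells carry out most of the photosynthesis of a grass leaf, and bundle sheath cells surround the veins. Companion cells supply the sieve elements of the phloem, the epidermis forms the outer layer, and vascular cells belong to the vein. In seedling, other vein cells such as Developing_xylem and Vascular_parenchyma have columns of their own, which leaf lacks. Vascular_cell therefore need not cover the same cells in both organs. A seedling holds young leaves and growing tissue beside expanded ones, so a cell type of the same name can be at different stages in the 2 organs.

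The table listed 128764 regions of 501 bases on 12 chromosomes, and 122433 of them (95.1%) had a mean CPM (read counts scaled to a common total) of at least 1 over the 10 columns and were kept. Depth per column is not given. Shallow columns have few possible levels, and the number of distinct values ran from 80 for Companion_cell to 1760 for Mesophyll in leaf, and from 76 for Companion_cell to 2530 for Bundle_sheath in seedling. In the leaf Companion_cell column 12737 regions shared the lowest value of 0.634 CPM, and in the seedling Companion_cell column 13490 shared 0.643 CPM. In the other 8 columns at most 341 regions sat at the lowest value. Differences in Companion_cell therefore move in coarse steps, and a difference against its lowest value depends on how the authors set that value. In every label but Companion_cell, leaf had fewer distinct values than seedling. The numbers were 516 against 2530 in Bundle_sheath, 420 against 879 in Epidermis, 1760 against 2322 in Mesophyll and 439 against 937 in Vascular_cell. Whether this bears on the counts of leaf minus seedling was not tested.

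Accessibility differed between leaf and seedling in every label. Beyond 1 on the log2 scale, which is a 2-fold difference in CPM, Epidermis had the most regions, with 21909 higher in leaf (17.9%) and 22126 lower (18.1%). Mesophyll had 15503 higher (12.7%) and 19025 lower (15.5%), and Vascular_cell 16516 higher (13.5%) and 18398 lower (15%). Bundle_sheath had 17463 higher (14.3%) and 20092 lower (16.4%), and Companion_cell 19302 higher (15.8%) and 20564 lower (16.8%). More regions were lower than higher in all 5 labels at this size, but in Epidermis this turned when the differences were centred on their median (22411 higher, 21533 lower), with log2(CPM + 1) (15844 and 15743), with log2(CPM + 5) (7343 and 6169) and at a mean CPM of at least 5 (11023 and 8950). The median difference over regions lay between -0.03 in Epidermis and 0.09 in Bundle_sheath, and the SD over regions was 1.29 in Epidermis and 1.01 to 1.10 in the other labels. Differences beyond 3 were lower in leaf more often than higher in Mesophyll (1008 regions against 253) and in Vascular_cell (892 against 309). Epidermis was the exception, with 2368 regions higher and 1925 lower.

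**Figure D1:**
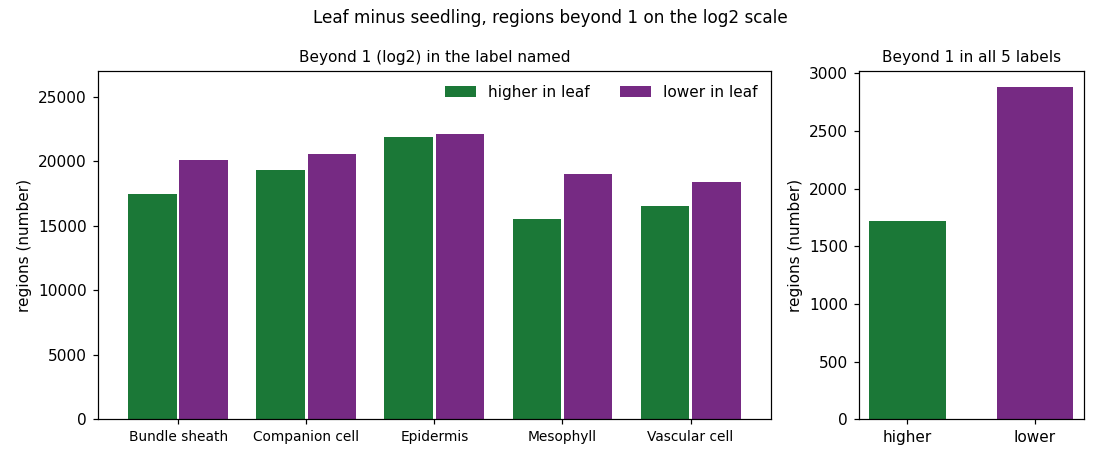
Regions whose difference of leaf minus seedling exceeds 1 (log2) in either direction, counted for each label (left) and in all 5 labels at the same time (right); green bars are regions higher in leaf and purple bars regions lower in leaf. The pair of bars is tallest in Epidermis, and in all 5 labels together 1724 regions were higher and 2878 lower.

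A part of these differences was common to all cell types. Beyond 1 in all 5 labels, 1724 regions were higher in leaf (1.41% of those kept) and 2878 were lower (2.35%), so 62.5% of the regions that differed in this way were lower in leaf. The higher regions had a median of 8.70 CPM over the labels in leaf and 2.09 CPM in seedling. The lower regions had a median of 2.48 CPM in leaf and 10.8 CPM in seedling. Beyond 2 in every label, 88 regions were higher and 224 lower. At any size of difference the order turned, and 22626 regions (18.5%) were higher in every label while 20124 (16.4%) were lower. The count of common regions was held down by Companion_cell, whose difference was the smallest of the 5 in 33.3% of the higher and 35.2% of the lower regions. Without this label, the remaining 4 gave 4330 higher and 6016 lower regions, and without Mesophyll there were 2737 higher and 3685 lower. Epidermis had the widest difference in 39.3% of the higher regions, and Bundle_sheath in 27.5% of the lower ones. With 5 added to every CPM before the log, which weakens differences of faint regions, 76 regions were higher and 339 lower, and the share lower was 81.7%.

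The 8 regions per direction whose smallest difference over the labels was widest are described next. Coordinates are those of the files, counted from 1. The labels do not name the genome build, and neither genes nor sequences were assigned to regions. The region on chromosome 9 from 11191862 to 11192362 led the regions higher in leaf. It had 13.8 CPM in Bundle_sheath, 7.43 in Companion_cell, 12.6 in Epidermis, 14.9 in Mesophyll and 12.9 in Vascular_cell of leaf, against 0.393, 0.643, 0.384, 0.856 and 0.442 CPM in the same order of labels in seedling. All 5 leaf columns lay far above all seedling columns, and the mean difference was 4.54 ± 0.69 (SD over 5 labels). The authors list it as specific to leaf cell types, and in the other 7 organs its median over cell states was at most 0.99 CPM.

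A pair of the leading regions lay within 5 kb of each other on chromosome 2. From 5284424 to 5284924, leaf had 38.5 CPM in Bundle_sheath, 6.50 in Companion_cell, 18.6 in Epidermis, 43.6 in Mesophyll and 24.1 in Vascular_cell, against 1.29, 0.643, 1.23, 5.59 and 1.43 CPM in seedling. From 5289316 to 5289816, leaf had 4.34 to 25.5 CPM and seedling 0.314 to 2.46 CPM. Mesophyll was the highest label in both organs at both regions, and yet the authors list both as broadly accessible. The widest mean difference, 4.85 ± 1.52, was found on chromosome 3 from 3744148 to 3744648, with 4.48 to 23.6 CPM in leaf and 0.204 to 1.06 CPM in seedling. Epidermis was the highest leaf label there and Bundle_sheath showed the widest difference, 6.42.

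Of the remaining 4, the region on chromosome 1 from 3909407 to 3909907 had 5.51 to 24.2 CPM in leaf and 0.643 to 3.02 CPM in seedling. On chromosome 6, the stretch 18118290 to 18118790 had 6.79 to 16.2 CPM in leaf and 0.222 to 1.57 CPM in seedling. It was not a leaf region alone, since early seed had a median of 4.71 CPM there. On chromosome 8 from 3360114 to 3360614, leaf had 6.50 to 18.1 CPM and seedling 0.468 to 1.33 CPM, and on chromosome 3 from 6778954 to 6779454 leaf had 9.13 to 29.0 CPM and seedling 0.449 to 3.001 CPM. In 6 of the 8 regions the seedling Companion_cell column sat at its lowest value.

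Among the regions lower in leaf, that on chromosome 11 from 4179845 to 4180345 led. It had 1.44 CPM in Bundle_sheath, 0.634 in Companion_cell, 1.62 in Epidermis, 1.30 in Mesophyll and 0.998 in Vascular_cell of leaf, against 30.02, 17.0, 23.8, 16.4 and 20.7 CPM in seedling. The mean difference was -4.21 ± 0.44 (SD over 5 labels), and the leaf Companion_cell value was the lowest of its column. On chromosome 6 from 27899522 to 27900022, no column was at its lowest value, and leaf had 1.30 CPM in Bundle_sheath, 2.38 in Companion_cell, 0.906 in Epidermis, 1.62 in Mesophyll and 0.703 in Vascular_cell, against 34.6, 24.8, 24.4, 25.2 and 27.4 CPM in seedling. Of all regions kept, none had a lower mean difference than its -4.42 ± 0.75.

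Values of the other lower regions follow. That on chromosome 8 from 2543540 to 2544040 had 1.33 to 2.12 CPM in leaf and 15.2 to 30.3 CPM in seedling. On chromosome 1, the stretch 1659007 to 1659507 had 0.596 to 0.927 CPM in leaf and 8.07 to 16.9 CPM in seedling, and that on chromosome 9 from 16808494 to 16808994 had 0.582 to 1.37 CPM in leaf and 7.15 to 23.6 CPM in seedling. Further members were found on chromosome 11, from 21961862 to 21962362 (0.634 to 1.78 CPM in leaf, 9.85 to 34.4 CPM in seedling) and from 22262182 to 22262682 (0.457 to 1.30 CPM in leaf, 7.15 to 21.3 CPM in seedling). The faintest was on chromosome 6 from 30966720 to 30967220, with 0.238 to 0.634 CPM in leaf and 2.19 to 6.19 CPM in seedling. Apart from those at 27899522 (chromosome 6) and 2543540 (chromosome 8), the leaf Companion_cell column sat at its lowest value in these lower regions. In each of these 16 regions the leaf and seedling values did not overlap, which their choice by the smallest difference in these same columns favours. Of the 8 lower regions, 7 are listed as broadly accessible.

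**Figure D2:**
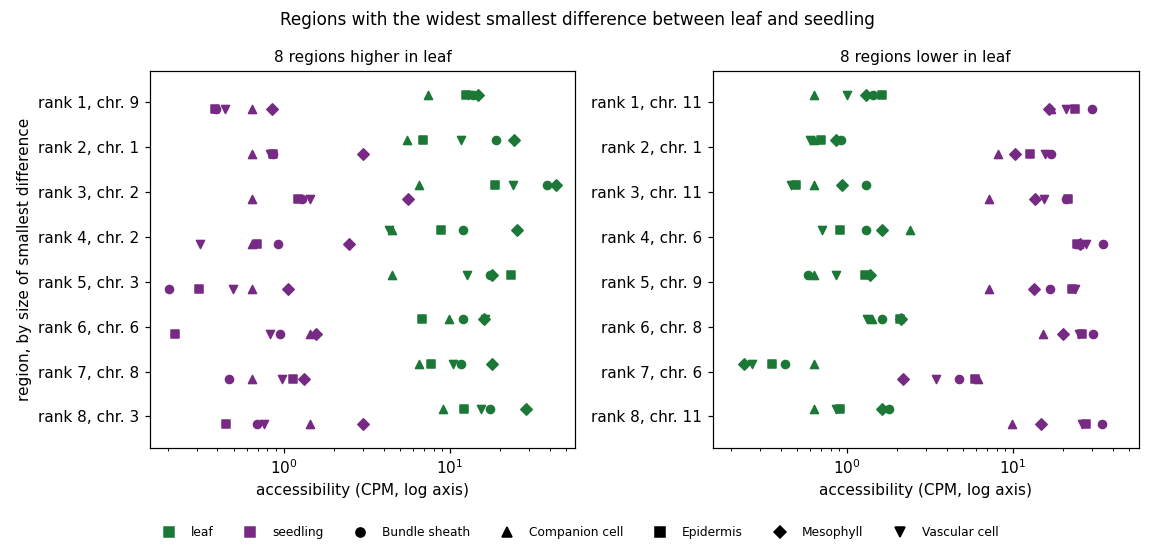
Accessibility in CPM (log axis) of the 8 regions with the widest smallest difference in each direction, ordered from top to bottom; green symbols are leaf and purple symbols seedling, and the shape gives the label. In every region the 5 leaf symbols lie on one side of the 5 seedling symbols, for instance 7.43 to 14.9 CPM against 0.384 to 0.856 CPM in the first region higher in leaf. The choice of regions by these columns favours such a separation.

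Columns that took no part in the call were then examined. Leaf has 3 further cell states, Bulliform, Guard_cell and Leaf_UN2, and seedling has 12. Their nuclei differ from those above but come from the same libraries. Of the 1724 regions higher in leaf, 1705 (98.9%) also had a higher median over these leaf states than over these seedling states, against 53.0% of all regions kept, and the median difference was 1.94. In 816 of them (47.3%) all 3 leaf states lay above all 12 seedling states, against 5.87% of all regions kept. Of the 2878 regions lower in leaf, 2856 (99.2%) had a lower median in the leaf states, against 47.0% of all regions kept, and the median difference was -1.95. In 1253 (43.5%) all 3 leaf states lay below all 12 seedling states, against 5.20% of all regions kept. Bulliform cells, the large epidermal cells that roll a grass leaf, differed from the seedling states by a median of 2.19 in the higher regions. Guard cells, which open and close stomata, differed by 1.98 and Leaf_UN2 by 1.68.

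Leaf stood apart from most of the 7 other organs in these regions. Over the cell states of an organ, the regions higher in leaf had a typical level of 7.72 CPM in leaf, against 1.82 CPM in seedling, 1.54 in axillary bud, 1.69 in panicle, 1.87 in early seed, 2.06 in early seedling, 2.11 in seminal root, 2.24 in crown root and 2.59 in late seed. Leaf had the highest median of the 9 organs in 1438 of these 1724 regions (83.4%), against 18.7% of all regions kept, and late seed had the highest in 138 (8.005%), against 16.9% of all. The regions lower in leaf had 2.26 CPM in leaf, against 9.40 CPM in seedling, 10.6 in axillary bud, 9.92 in panicle, 8.47 in early seedling, 6.57 in early seed, 5.17 in seminal root, 5.03 in crown root and 3.81 in late seed. Leaf had the lowest median in 2037 of these 2878 regions (70.8%), against 15.9% of all regions kept, and late seed had the lowest in 449 (15.6%), against 15.5% of all. The call required leaf and seedling to differ, and the leaf median includes the 5 leaf columns used for it. The shares with leaf highest or lowest are therefore raised by the choice of regions. The levels of the other organs are the new information in these values. Taking all regions kept, the 9 organs had typical levels of 4.48 to 4.78 CPM.

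The same 5 labels also exist in early seedling and axillary bud. In the regions higher in leaf, the mean over the 5 labels had a median of 2.96 in leaf, 0.97 in early seedling, 0.61 in axillary bud and 0.89 in seedling (log2 CPM). In the regions lower in leaf, it was 1.14 in leaf, 3.29 in early seedling, 3.47 in axillary bud and 3.30 in seedling. In early seedling, Companion_cell stood nearer to leaf than the other labels did. Its median of leaf minus early seedling was 0.95 in the higher regions, against 2.01 to 2.17 in the other labels. In the lower regions it was -1.52, against -2.14 to -2.07. Early seedling lay closer to leaf than to seedling in 67 of the higher regions (3.89%) and 102 of the lower ones (3.54%), against 29.1% of all regions kept. For axillary bud these were 72 (4.18%) and 155 (5.39%), against 28.9% of all regions kept. The leaf and seedling columns themselves chose these regions, and the early seedling and axillary bud columns took no part. The choice required a wide gap between leaf and seedling, which most regions kept lack. The shares over all regions kept are therefore not a like comparison, and nothing is concluded from the contrast with them.

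Single cell states of the seedling stages differed in how far they stood from leaf. In early seedling, the unnamed states Early_seedling_UN1, Early_seedling_UN2 and Early_seedling_UN3 had median levels of 2.09, 2.02 and 1.75 (log2 CPM) in the regions higher in leaf. The other early seedling states ran from 0.70 in SAM, the shoot apical meristem, to 1.54 in Large_parenchyma, and all leaf states had at least 2.69. In the regions lower in leaf the same 3 states had 2.09, 2.25 and 2.43, against 3.73 in SAM and 3.74 in Epidermis, and at most 1.41 in any leaf state. In seedling, Mesophyll (1.45) and Large_parenchyma (1.42) had the highest levels in the regions higher in leaf, and Companion_cell and Developing_fiber (0.52 each) the lowest. Outside the seedling stages, the Scutellum of late seed, the organ through which the embryo takes up reserves, came nearest to leaf with 1.93 in the higher regions. Its median in the lower regions was 1.93 as well, as that of Early_seedling_UN1 was 2.09 in both sets, so neither state separated the sets. In the lower regions the state nearest to leaf was Crown_root_UN2 with 1.71. None of the states of other organs reached the leaf range in either set.

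**Figure D3:**
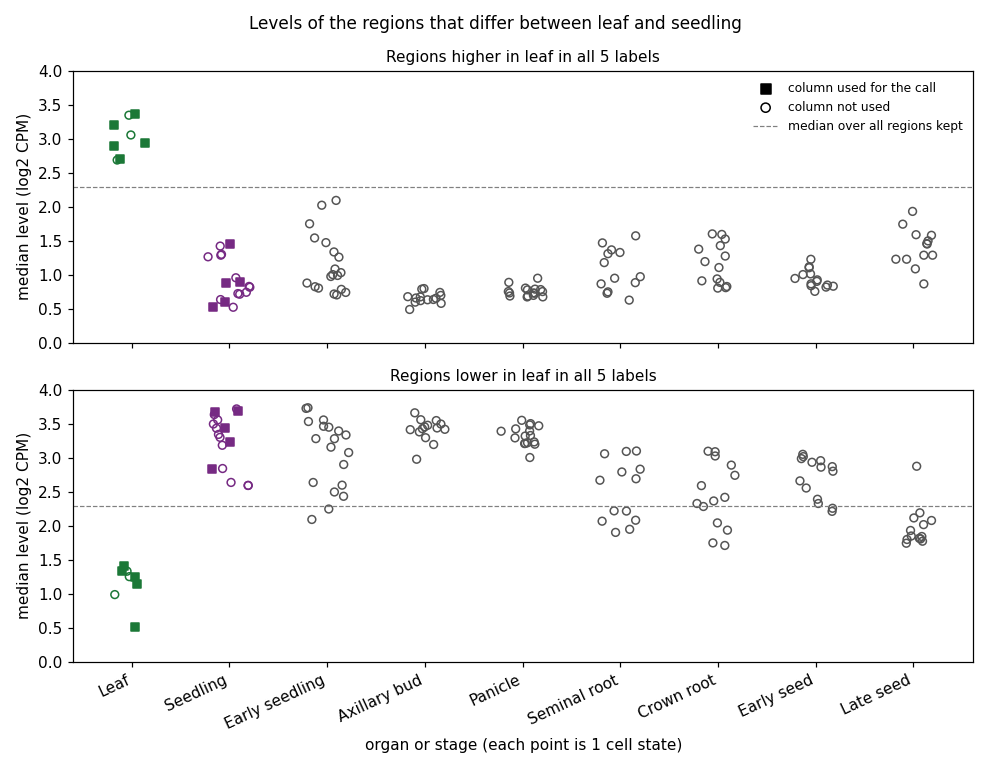
Median level in log2 CPM of the 1724 regions higher in leaf (top) and the 2878 regions lower in leaf (bottom) in each of the 128 cell states, grouped by organ; filled squares are the 10 columns used for the call and open circles the columns not used. The 8 leaf states stand above all others in the top panel (2.69 to 3.37) and below all others in the bottom panel (0.51 to 1.41), and Early_seedling_UN1 comes closest in the top panel with 2.09.

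The authors' list of broadly accessible and specific regions was set beside these calls. It comes from the same nuclei and is a description, not a test. Of the regions higher in leaf, 935 (54.2%) are listed as specific to some cell states and 650 (37.7%) as broadly accessible, against 30.1% and 63.0% of all regions kept. A leaf state is named for 652 of the higher regions (37.8%), against 5.44% of all regions kept, most often Bulliform (344), Bundle_sheath (292), Epidermis (290) and Mesophyll (262). Leaf states alone are named for 177 of the 1724, against 930 of all 122433 regions kept. Of the regions lower in leaf, 2517 (87.5%) are broadly accessible and 234 (8.13%) specific. A leaf state is named for 2 of the lower regions. A seedling state is named for 94 of the higher regions (5.45%) and 148 of the lower ones (5.14%), against 7.06% of all regions kept. Only regions listed as specific can name a state, and few lower regions are. Among the specific regions, a seedling state is named for 10.1% of the higher and 63.2% of the lower ones, against 23.5% of all kept.

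Regions that differed were found on all 12 chromosomes. The share higher in leaf ran from 1.12% of the regions kept on chromosome 4 to 1.66% on chromosome 5, and the share lower from 1.65% on chromosome 10 to 2.76% on chromosome 3. Chromosome 10 had 108 higher and 113 lower regions, whereas chromosome 4 had 120 and 263. Regions of the same direction often lay near each other. Of the higher regions 674 (39.1%) had another higher region within 10 kb, against 10.3% of all regions kept, and 82 (4.76%) had a lower region within that distance, against 15.3% of all. Of the lower regions 1517 (52.7%) had another lower region within 10 kb, against 15.3% of all, and 89 (3.09%) had a higher one, against 10.3% of all.

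Some of these neighbours formed unbroken runs, which were picked out after their values were seen. The longest consisted of 8 consecutive regions lower in leaf on chromosome 11 from 22256813 to 22263610. They averaged 1.19 CPM in leaf and 8.35 CPM in seedling over the 5 labels, with mean differences between -4.37 and -1.81 per region. Over the cell states of an organ, the median level of these 8 regions was 0.63 CPM in leaf, against 5.45 CPM in seedling. It was 13.1 CPM in axillary bud, 7.25 in panicle, 4.88 in early seedling, 4.12 in seminal root, 2.83 in crown root, 2.32 in early seed and 1.86 in late seed. The seedling Vascular_cell column was the highest of the 5 at the first regions of the run, with 28.01, 24.8 and 10.1 CPM. The leaf Companion_cell value was at the lowest of its column in 6 of the 8 regions. The region directly before the run, from 22255869 to 22256369, was also lower on average, with 4.93 CPM in leaf and 15.3 CPM in seedling, and the one before it, from 22254752 to 22255252, had 11.2 CPM in leaf and 18.4 CPM in seedling. Runs of 6 lower regions lay on chromosome 4 from 27102861 to 27106906, with 4.81 CPM in leaf and 19.6 CPM in seedling, and on chromosome 10 from 21933361 to 21946358, with 5.38 CPM in leaf and 24.0 CPM in seedling. Among the higher regions the longest runs held 4 regions, and there were 7 of them. That on chromosome 6 from 8106570 to 8110072 had 4.47 CPM in leaf and 0.631 CPM in seedling, and that on chromosome 3 from 33358931 to 33362998 had 16.7 CPM in leaf and 4.04 CPM in seedling.

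**Figure D4:**
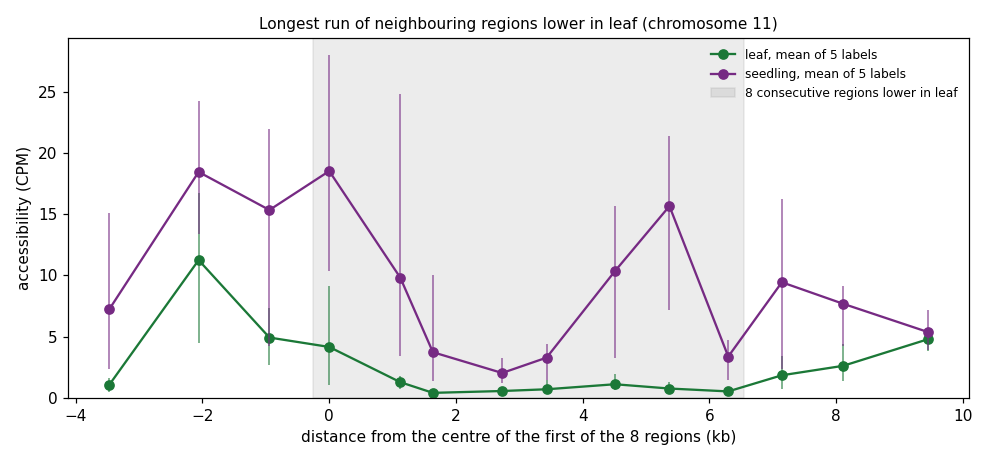
Accessibility in CPM along the run of 8 neighbouring regions on chromosome 11 (grey) and 3 regions on either side, against the distance in kb from the centre of the first region; points are means of the 5 labels and vertical lines run from the lowest to the highest label, green for leaf and purple for seedling. Leaf stays between 0.411 and 4.16 CPM across the run, while seedling reaches 18.5 CPM.

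Whether the same name meant similar chromatin in both organs was asked by correlating columns across the regions kept. The same label correlated at a mean of 0.739 between leaf and seedling and different labels at 0.676. The values were 0.781 for Mesophyll, 0.776 for Vascular_cell, 0.747 for Companion_cell, 0.741 for Bundle_sheath and 0.648 for Epidermis. Labels of the same organ correlated more closely, at a mean of 0.791 in leaf and 0.820 in seedling. Among the 5 seedling labels, the closest to leaf Bundle_sheath was Mesophyll (0.821), and the closest to leaf Epidermis was Mesophyll too (0.792). Companion_cell, Mesophyll and Vascular_cell of leaf were each closest to the seedling column of the same label. Seen from seedling, all labels but Mesophyll were closest to their own label in leaf, and seedling Mesophyll was closest to leaf Bundle_sheath. The columns share the normalization and differ in their number of distinct values, with 2322 in seedling Mesophyll and 2530 in seedling Bundle_sheath. Whether this bears on the correlations was not tested.

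Epidermis had the lowest correlation of a label with its namesake and, above, the most regions beyond 1. Seedling Epidermis correlated at 0.943 with Epidermis of axillary bud and 0.916 with that of early seedling, but at 0.648 with leaf Epidermis. Leaf Epidermis was closest to Early_seedling_UN3 (0.845) among the other 7 organs, followed by Developing_fiber of early seedling (0.813). For Companion_cell the closest column outside each organ had the same name in both, since the nearest seedling column to leaf was Companion_cell (0.747) and the nearest in the other 7 organs was that of early seedling (0.707).

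Subtracting from each label the mean of the other 4 labels of its organ removed what all labels of an organ share. The remaining cell type difference correlated between leaf and seedling at 0.40 in Companion_cell, 0.39 in Vascular_cell, 0.31 in Bundle_sheath, 0.26 in Mesophyll and 0.21 in Epidermis. For Companion_cell, Mesophyll, Vascular_cell and Epidermis the same label gave the highest value, in Epidermis by a small margin over Bundle_sheath (0.20) and Mesophyll (0.19) of seedling. Leaf Bundle_sheath correlated slightly more with seedling Mesophyll (0.33). Companion_cell exceeded the mean of the other 4 labels by more than 1 in 17172 regions of leaf and 16762 of seedling, and 7133 were shared. The shared regions were 41.5% of the leaf regions, where 13.7% of all regions kept passed in seedling. Vascular_cell had 5538 in leaf and 3847 in seedling with 1398 shared, which is 25.2% of the leaf regions against 3.14% of all regions kept. Bundle_sheath had 5273 in leaf and 4393 in seedling with 842 shared, 16.0% against 3.59%. Mesophyll had 7610 in leaf and 6122 in seedling with 1521 shared, 19.99% against 5.00%. Leaf Epidermis exceeded the mean of the other leaf labels by more than 1 in 13536 regions. Of these, 3152 (23.3%) passed in seedling too, against 8.52% of all regions kept. Relative to these shares over all regions, the overlap was widest in Vascular_cell and narrowest in Epidermis and Companion_cell. A large share over all regions limits this ratio, and that share was largest in Companion_cell (13.7%). As a plain share of the leaf regions, the overlap was widest in Companion_cell (41.5%).

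**Figure D5:**
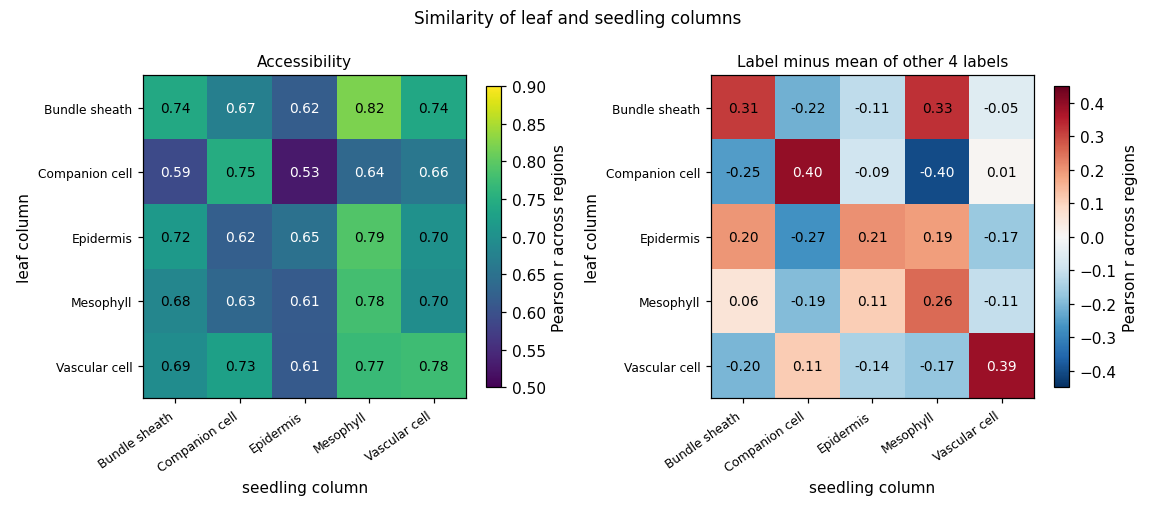
Pearson correlation across the 122433 regions kept between leaf columns (rows) and seedling columns (columns of the grid), for accessibility in log2 CPM (left) and for each label minus the mean of the other 4 labels of its organ (right). On the left the seedling Mesophyll column is high in most rows (0.64 to 0.82), and on the right 4 of 5 rows peak on the diagonal, from 0.21 in Epidermis to 0.40 in Companion_cell.

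The authors' lists of specific regions were compared next. The lists of Companion_cell shared 732 regions, which is 34.2% of the 2138 listed in leaf and 64.3% of the 1139 listed in seedling. Mesophyll shared 78 (8.96% of 871 in leaf, 35.5% of 220 in seedling), Epidermis 84 (4.40% of 1909 and 8.71% of 964) and Bundle_sheath 49 (3.80% of 1291 and 11.9% of 412). Vascular_cell shared 6 (1.14% of 526 in leaf, 16.2% of 37 in seedling), a count that its short seedling list limits. Of those 526 leaf regions, 97 are listed for seedling Companion_cell. The leaf list of Bundle_sheath shared more with seedling Mesophyll, 84 regions, than with its own label. In the 732 regions shared by Companion_cell the median level was 18.0 CPM in leaf and 14.3 CPM in seedling. In the 84 regions shared by Epidermis it was 11.8 CPM in leaf and 9.55 CPM in seedling.

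Differences in a single label were counted as beyond 2 in that label and within 0.5 in the other 4. There were 245 higher in leaf (0.2%) and 269 lower (0.22%), and most belonged to Companion_cell and Epidermis. Companion_cell had 153 higher (0.125% of the regions kept) and 161 lower (0.132%), and Epidermis 84 (0.0686%) and 65 (0.0531%). Mesophyll had 6 (0.0049%) and 14 (0.0114%), Bundle_sheath 1 (0.000817%) and 14 (0.0114%), and Vascular_cell 1 (0.000817%) and 15 (0.0123%). In Companion_cell, 97 of the 153 higher regions had the seedling column at its lowest value and 83 of the 161 lower regions the leaf column, whereas in Epidermis this held for 0 of 84 and 1 of 65. With log2(CPM + 1), Companion_cell had 56 higher and 61 lower regions and Epidermis 90 and 74. With log2(CPM + 5), Companion_cell had 0 and 0 and Epidermis 28 and 43, so the lead of Companion_cell depended on the scale. The part of the coarse steps in the Companion_cell counts was not tested.

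Epidermis gave single-label regions with high levels. On chromosome 8 from 5368306 to 5368806, Epidermis had 1.78 CPM in leaf and 31.3 CPM in seedling, while the other 4 labels had 0.634 to 2.23 CPM in leaf and 0.643 to 2.26 CPM in seedling. On chromosome 11 from 422012 to 422512, Epidermis had 2.80 CPM in leaf and 34.9 CPM in seedling, and the other labels had at most 4.07 CPM in leaf and 4.62 CPM in seedling. In both, the Epidermis column of seedling stood far above the other 9 columns. It was not alone in seedling, where the highest of the 12 states outside the comparison reached 32.3 CPM at the first and 31.8 CPM at the second region, and both are listed as broadly accessible. In the other direction, on chromosome 1 from 41599507 to 41600007, Epidermis had 9.56 CPM in leaf and 0.495 CPM in seedling. On chromosome 1 from 37834970 to 37835470 it had 3.09 CPM in leaf and 0.222 CPM in seedling. At 41599507, listed as broadly accessible, other leaf labels reached 6.23 CPM and seedling states outside the comparison 15.1 CPM. At 37834970 the other labels reached 3.23 CPM in leaf and 4.38 CPM in seedling.

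The remaining labels gave the following regions. For Companion_cell, that on chromosome 7 from 27592550 to 27593050 had 0.634 CPM in leaf and 13.4 CPM in seedling, and that on chromosome 10 from 5236595 to 5237095 had 8.29 CPM in leaf and 0.643 CPM in seedling, with the lower value at the column's lowest in both cases. For Mesophyll, the region on chromosome 9 from 21311800 to 21312300 had 8.62 CPM in leaf and 1.52 CPM in seedling, and that on chromosome 9 from 16570960 to 16571460 had 0.638 CPM in leaf and 3.98 CPM in seedling. At the latter, the leaf states outside the comparison ran from 0.943 to 16.4 CPM. For Vascular_cell, the region on chromosome 12 from 24380504 to 24381004 had 0.137 CPM in leaf and 2.29 CPM in seedling. The seedling states outside the comparison ran there from 0.348 to 19.0 CPM. For Bundle_sheath, the region on chromosome 11 from 17336455 to 17336955 had 0.195 CPM in leaf and 2.25 CPM in seedling. The leaf values of these Vascular_cell and Bundle_sheath regions lay near the lowest of their columns, 0.114 and 0.139 CPM.

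Labels could also differ in opposite directions. This was seen in 12016 regions (9.81%), which were higher in leaf by more than 1 in some label and lower by more than 1 in another, and 40513 regions (33.1%) were beyond 1 in no label. Apart from pairs with Companion_cell, the most frequent case was higher in leaf in Epidermis and lower in Mesophyll, with 2025 regions, whereas the reverse held for 601. The least frequent pairing was higher in Bundle_sheath and lower in Vascular_cell, with 89 regions. Across regions, the differences of Bundle_sheath and Vascular_cell correlated at 0.76 and those of Bundle_sheath and Mesophyll at 0.73. Those of Epidermis and Mesophyll correlated at 0.42, and those of Companion_cell with any other label at 0.22 to 0.33.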

How the data were processed

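The authors deposited one score per region and cell state, which the table's name gives as CPM and whose negative values show a log2 scale. Per the submitters' processing notes, BWA and MACS2 were used. Neither labels nor headers state the genome build, how cell types were named or how doublets were handled. Values summed to 1007548 to 1008613 CPM in every column once the log was undone, so a total gain or loss of accessibility in an organ cannot be seen. The second file lists each region as broadly accessible or with the cell states it is specific to.

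Leaf minus seedling was taken per label on the deposited log2 values for regions with a mean CPM of at least 1 over the 10 columns. Each column is pooled over 2 libraries and carries no replicate number, so no test was run and no interval was computed. The number of columns assigned to no organ was 0. Counting was tested on simulated data. Python 3.11.15, numpy 2.4.6 and pandas 2.3.3 were used. Regions were named by 2 rules: the 8 per direction with the widest smallest difference over the 5 labels, and for each label the 2 per direction with the widest gap to the other 4 labels, of which the text gives 10. These members, rules and lists were chosen with earlier results of these data known. Cell type labels were not checked against marker genes, because no gene annotation of the files' build was used, and planned gene lists were not analysed here. Alternatives were another scale, filter, size, centring and set of labels.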

Additional observations from a re-analysis of the deposited data

How the results depend on the processing

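With log2(CPM + 1), 772 regions were higher and 1676 lower in all 5 labels, and with log2(CPM + 5) 76 and 339. A mean CPM of at least 5 gave 937 and 1913, a limit of 0.5 gave 6577 and 7596, and a limit of 2 gave 88 and 224. Leaving out Companion_cell gave 4330 and 6016 and leaving out Mesophyll 2737 higher. Leaving out regions with a column at its lowest value, chosen after seeing the data, gave 1136 higher and 2067 lower. More regions were lower than higher under each of these. Without a filter, centred on the median, or without Bundle_sheath, Epidermis or Vascular_cell, the counts stayed within 1.5 times. Summed over labels, 90693 differences were higher and 100205 lower. They numbered 55552 and 67623 with log2(CPM + 1), 16515 and 21592 with log2(CPM + 5), and 36092 and 43958 at a mean CPM of at least 5. Differences in 1 label numbered 149 and 140 with log2(CPM + 1) and 80 and 72 at a mean CPM of at least 5. With log2(CPM + 5) they numbered 28 and 43, all in Epidermis. With a CPM added, or with fewer regions kept, faint regions drop out by construction. The excess of the same label over different labels in correlation, 0.0622 on average, was 0.148 in regions listed as specific. The mean correlation of cell type differences, 0.312, was 0.340 with log2(CPM + 1) and 0.394 at a mean CPM of at least 5. Adding a CPM cannot turn the direction of a difference within a label, so for the 16 named regions only the size was compared. With log2(CPM + 1), the mean difference of 15 of them moved by at least its SD over labels. With log2(CPM + 5) this held for all 16, and when centred all 16 stayed within that SD. The gene lists were not run. No paired analysis was possible because the columns carry no replicate number. Columns with few distinct values, Companion_cell above all, limit what can be resolved. Without replicates no difference is separated from library effects.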
